A study of Mus musculus with 6 samples.

Results

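Tight junctions seal the space between neighbouring cells, and the genes described here encode their membrane strands and the plaque beneath them. The set was given by name and holds 9 of the 49568 rows of the deposited table: the claudin genes Cldn1, Cldn3, Cldn4, Cldn5, Cldn7 and Cldn18, the occludin gene Ocln, and the scaffold genes Tjp1 and Cgn. The study compared the lungs of Col6a1-/- mice with those of wildtype mice, both of the C57BL/6 strain and 6 weeks of age. Col6a1 encodes a chain of collagen VI, a microfibrillar collagen found beside basement membranes. Lungs of both genotypes were perfused through the right ventricle, and RNA was taken from the right lobes. Each library held RNA of 2 animals of the same genotype, and each of the 12 animals went into 1 pool, so that there were 3 separate pools of Col6a1-/- mice and 3 of wildtype mice. The sources used here do not give the sex of the animals or how the Col6a1 allele was made.

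Claudins span the cell membrane and pair across the gap between cells, where the choice of claudin sets which ions and solutes can pass. Occludin lies in the same strands, and Tjp1 (ZO-1) and cingulin (Cgn) tie the strands to the actin cytoskeleton from the cytoplasmic side. In the lung, Cldn18 is the characteristic claudin of the alveolar epithelium, Cldn3 is found mainly in type 2 cells, Cldn4 is known for its induction in injured alveolar epithelium, Cldn7 occurs along airways and alveoli, Cldn1 is a claudin of airway and other epithelia, and Cldn5 is the main claudin of endothelial cells.

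Col6a1 itself had 10034, 10616 and 9343.8 normalized counts in Col6a1-/- replicates 1, 2 and 3, against 19907, 18393 and 22331 normalized counts in wildtype replicates 1, 2 and 3. A normalized count is the number of reads in a gene divided by a size factor of its library. The Col6a1-/- mean stood at 49.5% of the wildtype mean (log2 fold change -1.01, limma adjusted p = 0.00643), so reads in this gene were reduced and not absent. Libraries held 28055414 to 37904878 reads in genes. The mean level of 4 Y-linked genes, relative to the library with the lowest Xist, was 51.6% to 100% in the Col6a1-/- pools, against 0.30%, 3.42% and 50.6% in wildtype replicates 1, 2 and 3, so that wildtype replicate 3 stood with the Col6a1-/- pools in its share of male RNA. No marker of alveolar type 1 and type 2, airway, ciliated or endothelial cells was at 0 in all libraries. In bulk RNA, fewer cells of a type and less RNA per cell cannot be told apart.

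The 9 genes lie on 7 chromosomes (GRCm38, GENCODE M21). Cldn4 (ENSMUSG00000047501.3, chromosome 5, 134945119 to 134946934, minus strand) and Cldn3 (ENSMUSG00000070473.4, chromosome 5, 134986214 to 134987472, plus strand) are neighbours whose starts lie 39280 bases apart, with 0 annotated protein-coding genes between them. Cldn3, Cldn4 and Cldn5 (ENSMUSG00000041378.2, chromosome 16, 18776847 to 18778262, plus strand) each have 1 exon and transcripts of 1259, 1816 and 1416 bases. Cldn1 (ENSMUSG00000022512.3, chromosome 16, 26356642 to 26371841, minus strand) and Cldn7 (ENSMUSG00000018569.12, chromosome 11, 69964779 to 69967885, plus strand) have 4 exons, and Cldn18 (ENSMUSG00000032473.13, chromosome 9, 99689461 to 99717267, minus strand) has 5. Ocln (ENSMUSG00000021638.12, chromosome 13, 100496507 to 100552718, minus strand) has 9 exons, Cgn (ENSMUSG00000068876.14, chromosome 3, 94760069 to 94786492, minus strand) has 21, and Tjp1 (ENSMUSG00000030516.14, chromosome 7, 65296165 to 65527781, minus strand) has 28 exons and the longest transcript of the set, with 7049 bases. The median transcript length was 1616 bases for the 6 claudins and 2951 bases for all tested genes. Cldn1, with 3247 bases, and Cldn18, with 4172 bases, were the claudins above the median of all tested genes, and both scaffold genes and Ocln, with 4052 bases, also lay above it. The Cldn18 transcript of 4172 bases begins at 99710063, and the longest one that begins at 99717267 has 1750 bases, below that median. Exons of Cldn3 overlap those of Wbscr25 on the other strand. Wbscr25 had 6.56 to 23.1 normalized counts per library, and the sources used here do not say whether reads were counted by strand.

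Promoter sequences were taken from RefSeq (GRCm38.p6), which lists 12 starts for the 9 genes. The 250 bases before each start were searched on both strands for 4 motifs: the GC box GGGCGG, the TATA box TATAAA, the Nkx2-1 core CTCAAG and the grainyhead-like core AACCGG. The sequences of Cldn4 and Cldn7 are shown because these were the genes whose libraries did not overlap between genotypes, that of Cldn18 because it had the highest normalized counts of the set, and that of Cgn as a scaffold gene. Capitals mark matches to any of the 4 motifs, and no matches overlapped.
Cldn4 (chr5:134946935-134947184, minus strand): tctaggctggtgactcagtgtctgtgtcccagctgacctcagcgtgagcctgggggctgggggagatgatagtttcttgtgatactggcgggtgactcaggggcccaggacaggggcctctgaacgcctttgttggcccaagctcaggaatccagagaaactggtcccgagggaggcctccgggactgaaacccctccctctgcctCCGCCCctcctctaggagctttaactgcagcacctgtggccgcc
Cldn7, downstream start (chr11:69965171-69965420, plus strand): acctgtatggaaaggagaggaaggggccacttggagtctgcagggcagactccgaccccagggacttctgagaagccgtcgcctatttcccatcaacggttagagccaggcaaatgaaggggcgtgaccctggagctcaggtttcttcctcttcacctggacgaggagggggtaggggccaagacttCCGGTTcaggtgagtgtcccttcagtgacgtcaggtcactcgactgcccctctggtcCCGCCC
Cldn18, upstream start (chr9:99717268-99717517, minus strand): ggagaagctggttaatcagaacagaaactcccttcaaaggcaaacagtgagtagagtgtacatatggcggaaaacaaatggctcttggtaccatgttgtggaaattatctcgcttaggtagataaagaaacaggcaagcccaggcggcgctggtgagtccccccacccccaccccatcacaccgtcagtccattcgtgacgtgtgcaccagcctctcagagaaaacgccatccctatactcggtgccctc
Cgn (chr3:94786483-94786732, minus strand): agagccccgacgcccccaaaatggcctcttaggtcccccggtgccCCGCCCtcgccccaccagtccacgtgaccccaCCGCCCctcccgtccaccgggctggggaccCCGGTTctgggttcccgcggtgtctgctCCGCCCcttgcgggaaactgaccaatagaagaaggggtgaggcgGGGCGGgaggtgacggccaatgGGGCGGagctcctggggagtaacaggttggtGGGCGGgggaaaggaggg

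The Cgn window held 6 GC boxes and 1 grainyhead-like core, the window at the downstream start of Cldn7 held 1 of each, and the Cldn4 window held 1 GC box, while the Cldn18 window shown held 0 of the 4 motifs. The windows at the upstream start of Cldn7 and the downstream start of Cldn18, not shown, also held 0 of the 4. Over the 12 starts, a GC box was present at 9, against 32.7% of all 32851 promoter windows in the table. The grainyhead-like core was present at 3 of the 12, against 5.62% of all windows. The Nkx2-1 core was found at 1 of the 12, against 13.3%, and the TATA box at 0 of the 12, against 12.4%. Cldn7, Cldn18 and Ocln have 2 starts each, so the 12 windows are not independent. These matches describe letters in the windows only.

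No gene of the set passed the test for a difference between genotypes. The test was limma-trend on log2(normalized count + 1) over all 16879 genes with at least 10 normalized counts in at least 3 libraries, two-sided, with Benjamini-Hochberg adjustment and a threshold of 0.05. All 9 genes passed the filter on low values in both genotypes. With this test 0.0652% of all tested genes were called, so that 0 of 9 says little about the set. The adjusted p of the 9 genes ran from 0.186 to 0.956. An unadjusted p under 0.05 was found for 2 of the 9, Cldn7 (higher) and Tjp1 (lower), where 20.3% of all tested genes were below that value, 9.72% higher and 10.6% lower. Higher estimates were found for 5 of the 9 genes, against 51.7% of all tested genes. For 2 of the 9 genes, both higher in Col6a1-/- lungs, the genotypes did not overlap, where 24.9% of all tested genes did not overlap, 10.7% higher and 14.2% lower. The median log2 fold change of the set was 0.05, against 0.01 for all tested genes. In the authors' deposited table, made with DESeq2, 0 of the 9 genes had an adjusted p under 0.05, where 5.05% of the genes with an adjusted p did. DESeq2 run here on the whole reads also called 0 of the 9 and 5.06% of the genes to which it gave an adjusted p. When wildtype replicate 3 was left out, limma called 8.18% of all tested genes and 0 of the 9. The smallest adjusted p of the set in the authors' deposited table was 0.191, for Cldn7, and the next was 0.217, for Tjp1.

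**Figure D1:**
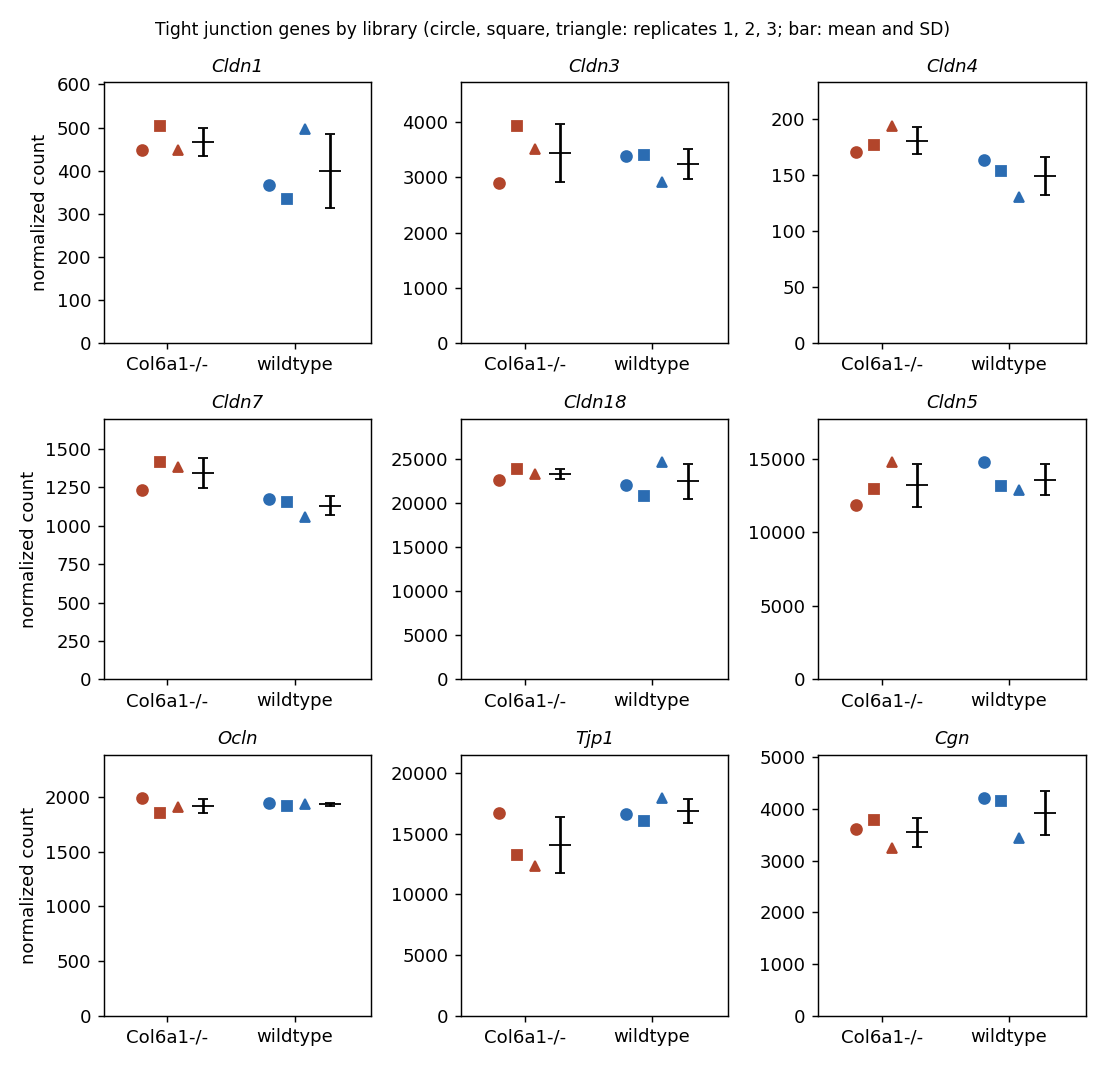
Normalized counts (y axis, from 0, a scale of its own in each panel) of the 9 genes in the 3 Col6a1-/- and 3 wildtype libraries, each point 1 pool of 2 animals, with the mean and SD beside the points. The Cldn4 and Cldn7 points do not overlap between genotypes, Tjp1 replicate 1 of Col6a1-/- lies among the wildtype points, and Ocln is level across all 6 libraries.

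Among the epithelial claudins, Cldn7 had the smallest p. Cldn7 had 1234.2, 1413.8 and 1378.5 normalized counts in Col6a1-/- replicates 1, 2 and 3, against 1175.6, 1157.1 and 1057.2 in wildtype replicates 1, 2 and 3. Every Col6a1-/- library lay above every wildtype library, by a narrow margin for Col6a1-/- replicate 1. Col6a1-/- lungs averaged 1342.2 ± 95.1 and wildtype lungs 1130.0 ± 63.7 (SD over 3 pools per genotype). On the log2 scale this was 0.25 (SE 0.09), with an unadjusted limma p of 0.0250 and an adjusted p of 0.186. Its 95% interval, not adjusted for the number of genes, ran from 1.03-fold to 1.37-fold.

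Cldn4 was the least abundant member of the set. It had 170.9, 177.1 and 193.9 normalized counts in Col6a1-/- replicates 1, 2 and 3, against 163.1, 153.7 and 130.7 in wildtype replicates 1, 2 and 3. The libraries did not overlap, and wildtype replicate 3 was the lowest of the 6. Col6a1-/- pools averaged 180.7 ± 11.9, 1.21-fold the 149.2 ± 16.6 of wildtype pools (SD, n = 3 each), with a limma adjusted p of 0.300. Behind these values were 135 to 213 reads per library, and the 95% interval of the fold change ran from 0.97 to 1.52.

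Cldn3, whose start neighbours that of Cldn4, overlapped between genotypes. Libraries of Col6a1-/- replicates 1, 2 and 3 held 2893.8, 3936.2 and 3521.8 normalized counts of it, against 3383.5, 3402.0 and 2923.8 in wildtype replicates 1, 2 and 3. Col6a1-/- replicate 1 and wildtype replicate 3 were the low libraries, and Col6a1-/- replicate 2 was the high one. Its estimate was 0.08 on the log2 scale (SE 0.12, limma adjusted p = 0.715). The list of 6 epithelial markers (Epcam, Krt7, Krt8, Krt18, Nkx2-1 and Elf3) was low and high in the same libraries, at -0.10, 0.21 and 0.06 (log2 difference from the 6-library mean) in Col6a1-/- replicates 1, 2 and 3, against 0.00, -0.01 and -0.17 in wildtype replicates 1, 2 and 3.

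Cldn1 had 447.8, 504.1 and 447.9 normalized counts in Col6a1-/- replicates 1, 2 and 3, against 367.6, 333.7 and 497.6 in wildtype replicates 1, 2 and 3. Wildtype replicate 3 lay within the range of the Col6a1-/- libraries, and the other wildtype libraries lay below it. Cldn1 had an estimated log2 fold change of 0.24 (SE 0.15, limma adjusted p = 0.384). Leaving out wildtype replicate 2 gave 0.12, and leaving out wildtype replicate 3 gave 0.41. With the share of male RNA in each pool as a covariate it was -0.18 (limma adjusted p = 0.821), so its direction was not settled by these pools.

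Cldn18 was nearly level between genotypes. It had 22679, 23862 and 23332 in Col6a1-/- replicates 1, 2 and 3, against 22122, 20770 and 24678 normalized counts in wildtype replicates 1, 2 and 3. The 3 Col6a1-/- libraries fell inside the range of the wildtype libraries, whose highest was replicate 3. Col6a1-/- lungs averaged 23291 ± 593 and wildtype lungs 22524 ± 1985 (SD, n = 3 each), a log2 fold change of 0.05 with a limma adjusted p of 0.794. The 95% interval ran from 0.89-fold to 1.21-fold in this fit, which had no covariates. With the male share as a covariate the log2 fold change was -0.10, with a wider 95% interval from -0.46 to 0.26. Cldn18 is annotated with 4 transcripts from an upstream start at 99717267 and a downstream start near 99710063. In mouse, lung and stomach are known to use different starts of this gene, and the counts per gene do not separate them.

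Cldn5, the endothelial claudin, also overlapped. It had 11867, 12914 and 14758 normalized counts in Col6a1-/- replicates 1, 2 and 3, against 14757, 13102 and 12856 in wildtype replicates 1, 2 and 3. The highest library of each genotype reached the same level. Its log2 estimate was -0.05 (SE 0.11, limma adjusted p = 0.837), and the 95% interval ran from 0.82-fold to 1.14-fold. Of the 8 endothelial markers (Pecam1, Cdh5, Tek, Tie1, Kdr, Erg, Emcn and Egfl7), 6 had lower estimates in Col6a1-/- lungs. Estimates of Emcn and Egfl7 were higher, and limma called 0 of the 8 (smallest adjusted p 0.132). Lower without overlap were 4 of the 8, against 14.2% of all tested genes. The summed normalized counts of the 8, to which Cdh5 and Pecam1 gave the most, were 120900 to 129030 in Col6a1-/- against 137370 to 148740 in wildtype libraries.

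Ocln varied least of the set. It had 1987.8, 1857.7 and 1912.4 in Col6a1-/- replicates 1, 2 and 3, against 1942.0, 1917.8 and 1939.2 normalized counts in wildtype replicates 1, 2 and 3. All 3 wildtype libraries lay within the range of the Col6a1-/- libraries. The coefficient of variation over the 6 libraries was 2.22%, where that of the other 8 genes ran from 6.01% to 15.9%. Its Col6a1-/- mean stood at 99.3% of the wildtype mean (limma adjusted p = 0.956), and the 95% interval ran from 0.88-fold to 1.12-fold.

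Both scaffold genes had lower estimates in Col6a1-/- lungs. Tjp1 had 16705, 13240 and 12332 normalized counts in Col6a1-/- replicates 1, 2 and 3, against 16641, 16048 and 17928 in wildtype replicates 1, 2 and 3. Col6a1-/- replicates 2 and 3 lay below all wildtype libraries, and Col6a1-/- replicate 1 lay among them. Tjp1 averaged 14092 ± 2308 in Col6a1-/- pools, 83.5% of the 16873 ± 961 in wildtype pools (SD, n = 3 each). On the log2 scale the estimate was -0.27 (SE 0.12), with an unadjusted limma p of 0.0461 and an adjusted p of 0.237. Without Col6a1-/- replicate 1 the estimate was -0.40, and without Col6a1-/- replicate 3 it was -0.18.

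Cgn had 3611.2, 3795.2 and 3239.9 normalized counts in Col6a1-/- replicates 1, 2 and 3, against 4207.0, 4146.3 and 3438.9 in wildtype replicates 1, 2 and 3. Wildtype replicate 3 lay between the Col6a1-/- libraries, and the other wildtype libraries lay above them. Its Col6a1-/- mean stood at 90.3% of the wildtype mean (log2 fold change -0.14, SE 0.10, limma adjusted p = 0.453). The estimate was -0.08 without Col6a1-/- replicate 3, -0.09 without wildtype replicate 1 and -0.24 without wildtype replicate 3.

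**Figure D2:**
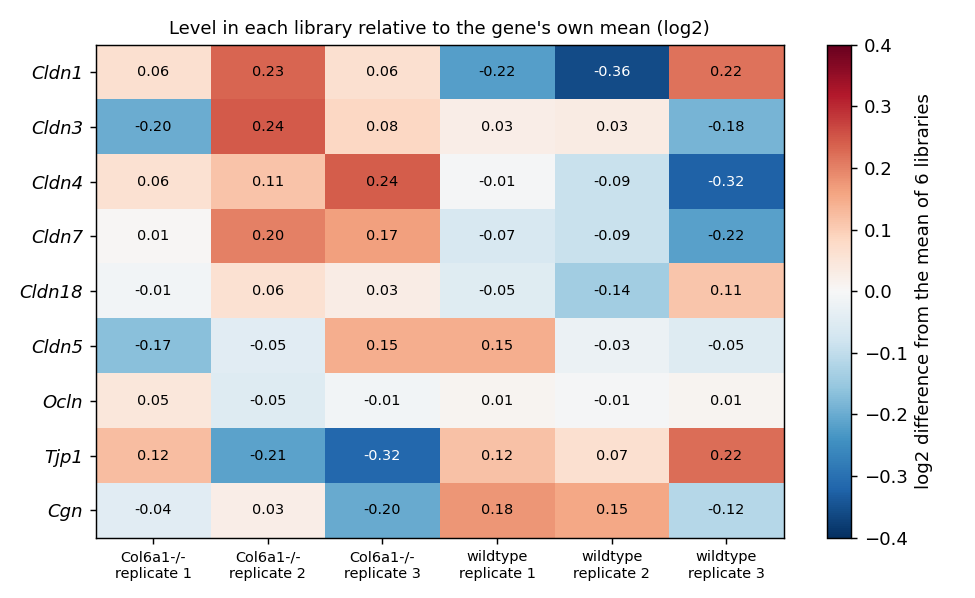
Level of each gene in each library relative to the mean of that gene over the 6 libraries (log2, colour and printed value), Col6a1-/- libraries on the left. Cldn4 and Cldn7 are above 0 in the 3 Col6a1-/- libraries and below 0 in the 3 wildtype libraries, and wildtype replicate 3 differs in sign from the other wildtype libraries for Cldn1, Cldn18, Cldn3 and Cgn.

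Per kilobase of transcript, over all 6 libraries, Cldn5 had the highest level, with a mean of 9446 normalized counts per kilobase (range 8381 to 10422). Cldn18 followed with 5491 (4978 to 5915) when its length was taken as that of its longest transcript, 4172 bases. With the 1750 bases of the longest transcript from the upstream start, its level would be 13090 per kilobase, above that of Cldn5, so the order of these genes depends on the transcript. Cldn3 had 2656 (2299 to 3127) and Tjp1 had 2196 (1749 to 2543) per kilobase, and the ranges of these neighbours overlapped. Cldn7 with 926 (792 to 1059) and Cgn with 746 (646 to 839) per kilobase also overlapped. Below them came Ocln with 475 (458 to 491), Cldn1 with 133 (103 to 155) and Cldn4 with 90.8 (72.0 to 107), of which Cldn1 and Cldn4 overlapped at the edges of their ranges.

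Across all tested genes, fold changes were lower for longer transcripts. With all tested genes in 10 bins by length, the median log2 fold change was 0.15 in the bin with the shortest transcripts (median length 782 bases) and -0.15 in the bin with the longest (median 8044 bases). Across the 16402 tested genes of known length, Spearman's rho between length and log2 fold change was -0.294, and it was -0.423 across 56 tight junction genes, the 9 described here included. It was -0.65 across the 9 genes alone, with Cldn18 taken at the 4172 bases of its longest transcript. With GC content, rho was -0.284 across all tested genes and 0.233 across the 9 genes. All of these points share the same 6 libraries. Tjp1, with 7049 bases, and Cgn, with 5016 bases, were the longest of the 9 and had the lowest estimates. After a smooth trend on transcript length and GC content was removed from each library, the log2 fold change of Tjp1 was -0.15 (limma adjusted p = 0.305) and that of Cgn was 0.02 (adjusted p = 0.873). In this fit 0 of the 9 genes and 0.549% of all tested genes were called. The estimates of Cldn7 and Cldn4 were 0.19 and 0.25 after this removal, with limma adjusted p of 0.158 and 0.292, and that of Ocln was -0.15 with an adjusted p of 0.392.

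**Figure D3:**
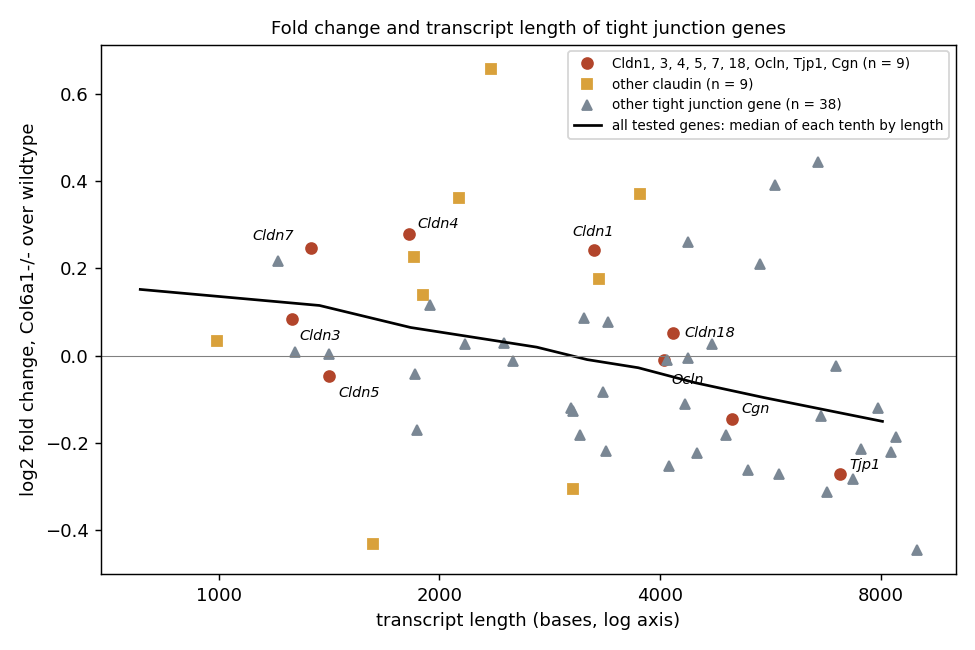
Log2 fold change of Col6a1-/- over wildtype lungs (y axis) against transcript length in bases (x axis, log scale) for the 9 genes, other claudins and other tight junction genes, each point 1 gene. The line joins the medians of all tested genes in 10 bins by length, at 0.15 in the shortest and -0.15 in the longest bin, with Tjp1 and Cgn at the low right and Cldn4 and Cldn7 at the high left.

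The share of male RNA also moved with genotype. With that share as a covariate, the 95% intervals of the 9 genes widened. The log2 fold change of Cldn4 was 0.53 (unadjusted limma p 0.0417, adjusted p = 0.647), that of Cldn7 was 0.32 (adjusted p = 0.673) and that of Tjp1 was -0.40 (adjusted p = 0.673). In that fit 0 of all tested genes (0%) were called, with 1298 at an unadjusted p under 0.05, and the estimates of Cldn1, Cldn18, Cldn5 and Ocln changed sign. Summed fat, cardiac muscle and red cell markers were also higher in every Col6a1-/- library. Fat markers summed to 4484 to 7968 normalized counts in Col6a1-/- and 1473 to 3941 in wildtype libraries, over 5 genes. Cardiac muscle markers, also 5 genes, summed to 8283 to 9611 in Col6a1-/- and 5876 to 7818 in wildtype libraries, and 5 red cell genes to 62062 to 102290 in Col6a1-/- and 41736 to 47783 in wildtype libraries. No gene of these lists was at 0 in all libraries. Airway club cell markers (Scgb1a1, Scgb3a2 and Cyp2f2) summed to 715910 to 903400 in Col6a1-/- and 545880 to 689740 in wildtype libraries. Limma called 0 genes of the fat, cardiac muscle, red cell and club cell lists (smallest adjusted p 0.079, 0.094, 0.078 and 0.081). Higher without overlap were 4 of 5, 4 of 5, 5 of 5 and 3 of 3 of their genes, against 10.7% of all tested genes. Cfd of the fat list and Nppa of the cardiac list overlapped. Sums follow the most abundant genes, such as Scgb1a1 with 609790 to 776430 in Col6a1-/- and 453860 to 591780 in wildtype libraries. The part of these tissues in the claudin values was not tested.

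**Figure D4:**
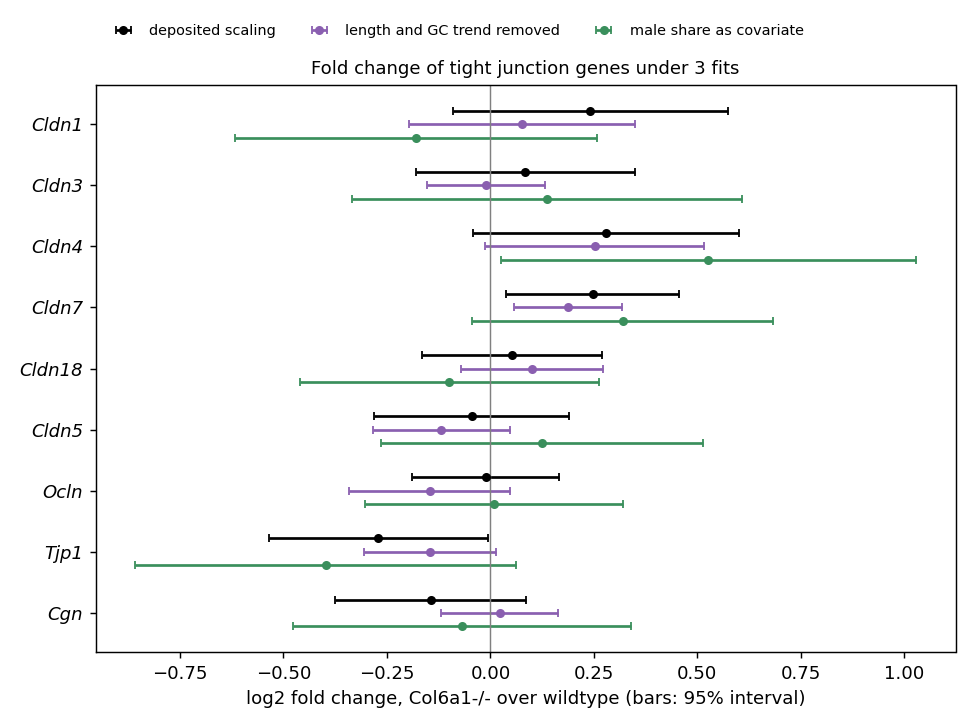
Log2 fold change of Col6a1-/- over wildtype lungs (x axis) of the 9 genes with 95% limma intervals, for the deposited scaling, after removal of the trend on transcript length and GC, and with male share as a covariate. The estimates of Cldn4 and Cldn7 stay to the right of 0 and that of Tjp1 to the left in all 3 fits. The interval of each of these genes reaches across 0 in at least 1 fit. The estimates of Cldn1, Cldn3, Cldn5, Cldn18, Ocln and Cgn change sign in at least 1 of the 3 fits.

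To set each gene beside markers of cells that carry it, the log2 value of the gene minus the mean log2 value of a marker list was compared between genotypes. There were 10 such differences, each with an exact permutation test over libraries, two-sided, whose smallest possible p is 0.1. Cldn3 and Cldn18 were not set beside the alveolar type 2 markers. The mean log2 level of those markers differed by -0.14 (Col6a1-/- minus wildtype), against 0.12 for the epithelial and -0.01 for the alveolar type 1 markers. The differences of Cldn3 and Cldn18 therefore depend on the list chosen. Cldn7 relative to the epithelial markers was -1.26, -1.37 and -1.26 in Col6a1-/- replicates 1, 2 and 3, against -1.44, -1.45 and -1.41 in wildtype replicates 1, 2 and 3. The libraries did not overlap, the difference was 0.13 and the exact p was 0.1 (adjusted over the 10 differences, 0.5). With the trend on length and GC removed, the Cldn7 difference was 0.06 (exact p = 0.3). Cgn relative to the same markers was 0.28, 0.05 and -0.03 in Col6a1-/- replicates 1, 2 and 3, against 0.40, 0.40 and 0.29 in wildtype replicates 1, 2 and 3. It did not overlap either, with a difference of -0.26 and an exact p of 0.1 (adjusted 0.5), and the difference was -0.11 with the trend on length and GC removed (exact p = 0.2).

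The log2 value of Cldn3 minus that of the epithelial markers lay between -0.03 and 0.11 in all 6 libraries, with a difference between genotypes of -0.03 (exact permutation p = 0.6). After the trend was removed, that difference was -0.14 and the genotypes did not overlap (exact permutation p = 0.1). Relative to these markers the Cldn4 difference was 0.16, that of Cldn1 was 0.13 and that of Ocln was -0.13, with exact p of 0.3, 0.7 and 0.4. After the trend was removed these differences were 0.12 for Cldn4, -0.05 for Cldn1 and -0.28 for Ocln, with exact p of 0.4, 0.7 and 0.1. Tjp1, which both epithelial and endothelial cells express, differed by -0.39 relative to the epithelial and by -0.18 relative to the endothelial markers (exact permutation p = 0.3 for each; -0.28 and -0.07 after the trend was removed, exact p of 0.2 and 0.5), and in both cases Col6a1-/- replicate 1 lay among the wildtype libraries. Cldn18 relative to 7 alveolar type 1 markers was 0.66, 0.64 and 0.67 in Col6a1-/- replicates 1, 2 and 3, against 0.54, 0.45 and 0.78 in wildtype replicates 1, 2 and 3. The Col6a1-/- libraries were tightly grouped inside the wider wildtype range, with a difference of 0.07 (exact permutation p = 0.6), or 0.15 after the trend was removed (exact p = 0.3). Cldn5 relative to 7 endothelial markers differed by 0.05 (exact permutation p = 0.8), or -0.05 after the trend was removed (exact p = 0.7).

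**Figure D5:**
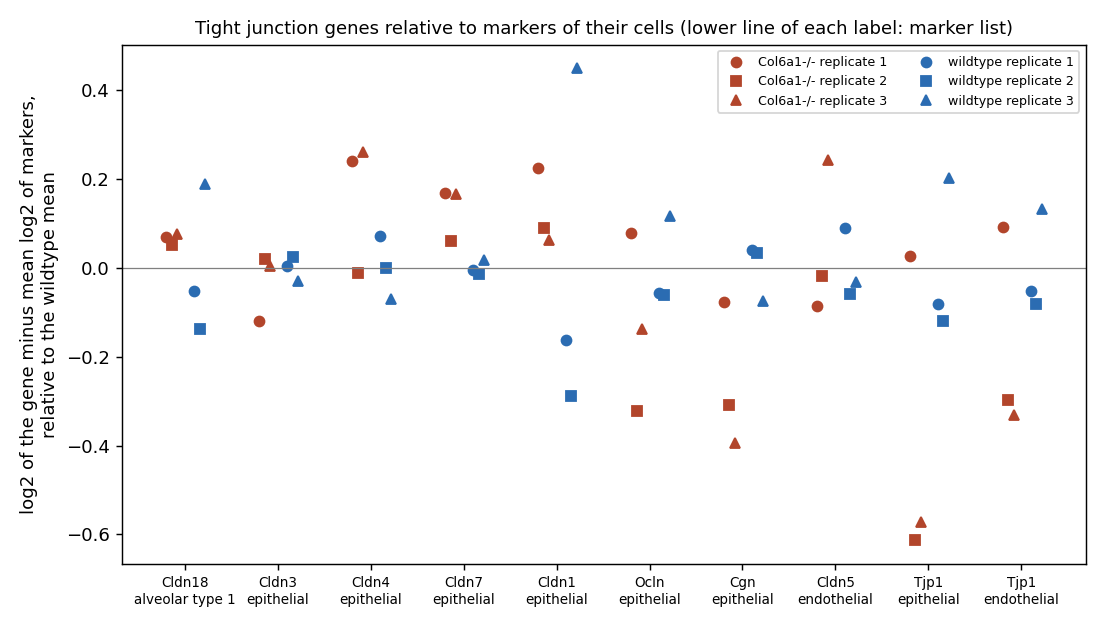
Log2 value of each gene minus the mean log2 value of its marker list (y axis, relative to the wildtype mean) in each library, Col6a1-/- points left of wildtype points. The genotypes do not overlap for Cldn7 and Cgn against the epithelial markers, and Tjp1 is low in Col6a1-/- replicates 2 and 3 only.

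The other claudins were mostly low or absent in lung. Of 23 further claudin genes in the table, 9 passed the filter, 0 were called by limma and 7 of the 9 estimates were higher, a share of 77.8% beside 51.7% of all tested genes. Their median log2 fold change was 0.18. Of these 9, 3 had an unadjusted limma p under 0.05, all higher, a share of 33.3% beside 20.3% of all tested genes (9.72% higher). With the trend on length and GC removed, 5 of the 9 estimates were higher and 4 lower, and their median was 0.13. In that fit 8099 of all tested genes of known length were higher and 8303 lower. The most abundant was Cldn12, with 1044.0, 1148.1 and 984.7 normalized counts in Col6a1-/- replicates 1, 2 and 3, against 766.4, 710.3 and 1002.0 in wildtype replicates 1, 2 and 3. As for Cldn1, wildtype replicate 3 lay among the Col6a1-/- libraries. Its log2 fold change was 0.37 (limma adjusted p = 0.169), and with the male share as a covariate it was -0.03.

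Cldn8, known as a claudin of tight epithelia such as the collecting duct, had 153.3, 146.5 and 135.0 normalized counts in Col6a1-/- replicates 1, 2 and 3, against 78.9, 76.8 and 125.9 in wildtype replicates 1, 2 and 3. Its libraries did not overlap, and wildtype replicate 3 again stood nearest to the Col6a1-/- libraries. Cldn8 had a log2 fold change of 0.66 (SE 0.20, limma adjusted p = 0.133), which was 0.34 after removal of the trend on length and GC and 0.14 with the male share as a covariate. Cldn10, a claudin whose forms make ion pores, had 731.1, 708.5 and 980.7 normalized counts in Col6a1-/- replicates 1, 2 and 3, against 590.9, 654.3 and 620.6 in wildtype replicates 1, 2 and 3. Every Col6a1-/- library lay above every wildtype library. Its log2 fold change was 0.36 (limma adjusted p = 0.173), and it was 0.59 with the male share as a covariate and 0.21 without Col6a1-/- replicate 3, its highest library. Cldn15 and Cldn23 overlapped between genotypes, with log2 fold changes of 0.14 and 0.23 and limma adjusted p of 0.622 and 0.482.

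Of 39 other tight junction genes, all of which passed the filter, 0 were called by limma. Higher estimates numbered 14 and lower estimates 25, and the median was -0.08 on the log2 scale. Of those with an unadjusted p under 0.05, 2 were higher and 9 lower, a share of 28.2% beside 20.3% of all tested genes. With the trend on length and GC removed, 16 were higher and 22 lower among the 38 of known length, and the median was -0.02. An adjusted p under 0.05 in the authors' deposited table was found for 3 of the 39 genes: Amotl1 and Cgnl1, both lower, and Cxadr, higher. Among all genes to which that table gives an adjusted p, 5.05% were below 0.05.

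Amotl1, an angiomotin family protein that binds actin and Hippo pathway proteins at junctions, had 5659, 5362 and 4288 normalized counts in Col6a1-/- replicates 1, 2 and 3, against 7045, 6745 and 6910 in wildtype replicates 1, 2 and 3. All Col6a1-/- libraries lay below all wildtype libraries. Amotl1 had a log2 fold change of -0.45 (SE 0.11) and a limma adjusted p of 0.0954, against an adjusted p of 0.0143 in the authors' deposited table. With the trend on length and GC removed it was -0.20 (limma adjusted p = 0.150), and its transcript has 8957 bases. With the male share as a covariate the Amotl1 value was -0.60 (limma adjusted p = 0.615).

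Cgnl1 (paracingulin), the close relative of Cgn, had 6817, 6627 and 6088 normalized counts in Col6a1-/- replicates 1, 2 and 3, against 8168, 8193 and 7855 in wildtype replicates 1, 2 and 3. Its libraries did not overlap, unlike those of Cgn. Cgnl1 had a log2 fold change of -0.31 (SE 0.08) and a limma adjusted p of 0.111, against an adjusted p of 0.0329 in the authors' deposited table. With the trend removed it was -0.09 (limma adjusted p = 0.336), and with the male share as a covariate it was -0.33 (limma adjusted p = 0.649).

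Cxadr, the coxsackievirus and adenovirus receptor, a junctional adhesion protein, went the other way. Its transcript has 5742 bases and a GC content of 42%. It had 4437, 4170 and 3871 normalized counts in Col6a1-/- replicates 1, 2 and 3, against 2972, 3012 and 3555 in wildtype replicates 1, 2 and 3. The libraries did not overlap, and wildtype replicate 3 was the nearest to the Col6a1-/- libraries. Cxadr had a log2 fold change of 0.39 (SE 0.10) and a limma adjusted p of 0.101, against an adjusted p of 0.0231 in the authors' deposited table. It was 0.32 with the trend on length and GC removed (limma adjusted p = 0.0628) and 0.17 with the male share as a covariate.

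Of the remaining named genes, Magi2, a membrane-associated scaffold, and Crb3, an apical polarity protein, had higher estimates, with log2 fold changes of 0.44 and 0.22 and limma adjusted p of 0.132 and 0.329. Pard3, a polarity scaffold, had a log2 fold change of -0.27 with a limma adjusted p of 0.138, and -0.08 with the trend removed.

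Adherens junctions and desmosomes, which lie below the tight junction, were read in the same way. Of 19 such genes 0 were called by limma, 8 had higher and 11 lower estimates, and the median log2 fold change was -0.12. After removal of the trend on length and GC the median was 0.00. In the authors' deposited table, Nectin1 and Cdh5 had an adjusted p under 0.05, both lower, which is 2 of 19 genes beside 5.05% of all genes in that table. Cdh5, the cadherin of endothelial cells, had 37505, 31446 and 31968 normalized counts in Col6a1-/- replicates 1, 2 and 3, against 44141, 43238 and 40939 in wildtype replicates 1, 2 and 3. The libraries did not overlap, whereas those of Cldn5, which is expressed in the same cells, did. The Cdh5 log2 fold change was -0.35 with a limma adjusted p of 0.132, and 0.0287 in the authors' deposited table. With the trend on length and GC removed, the log2 fold change was -0.23 for Cdh5 (limma adjusted p = 0.173) and -0.12 for Cldn5 (limma adjusted p = 0.417). Nectin1, an adhesion receptor, had a log2 fold change of -0.37 with a limma adjusted p of 0.101, and 0.0262 in the authors' deposited table. The Nectin1 value was -0.20 after removal of the trend (limma adjusted p = 0.240) and -0.19 with the male share as a covariate. Perp and Ctnnd1 (p120 catenin) had log2 fold changes of 0.28 and 0.15, with limma adjusted p of 0.166 and 0.289. After removal of the trend Ctnnd1 stood at 0.28 (limma adjusted p = 0.0852).

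Genes with the most similar pattern over the 6 libraries were found by the root mean square difference of log2 values centred on the mean of each gene, among 12379 tested genes with a mean of at least 100 normalized counts. Nearest to Cldn18 were Gla, Cd34 and Fuca2, at 0.022, 0.022 and 0.023, where Cldn18 itself deviated from its own mean by 0.08. Nearest to Cldn5 were Lrwd1, Atp5g1 and Ccdc124, at 0.029, 0.029 and 0.033, where Cldn5 deviated by 0.11. Nearest to Tjp1 were Aff4, Birc6 and Setbp1, at 0.032, 0.034 and 0.036, where Tjp1 deviated by 0.19. Transcripts of the genes near Cldn18 have 3172, 2554 and 5741 bases, and those near Cldn5 have 2473, 4715 and 1356 bases. Those near Tjp1 have 10099, 15768 and 9953 bases. Log2 fold changes of the genes near Tjp1 were -0.26, -0.28 and -0.34 with limma adjusted p of 0.206, 0.201 and 0.169. Because these genes were picked for their match over the same 6 libraries, fold changes close to that of Tjp1 follow from the choice. The part of length in these patterns was not tested.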

How the data were processed

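RNA from the right lobes of perfused lungs, in 6 pools, 3 Col6a1-/- and 3 wildtype, was measured by RNA sequencing. The submitters' processing notes name DESeq2 1.16.1, featureCounts, Subread 1.5.0p3, STAR 2.5.2b, Trimmomatic 0.36, R 3.4.1 and the build GRCm38.p5, without saying what each did. Each deposited signal is a gene's normalized count, from DESeq2 as the table's name has it, with the count divided by the authors' size factor. The column header of wildtype replicate 2 has the extra word New, which the sources used here do not explain. Every value (100% per library, within 1e-06) was a whole number of reads divided by 1 factor, which gave 28055414 to 37904878 reads in genes per library. For Col6a1-/- replicate 3 the factor lies too near 1 for the step to be checked on its own. The authors' deposited table of the comparison holds a log2 fold change, a p-value, an adjusted p-value and, treated as a score, a mean count and a test statistic.

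Here limma 3.58.1 (R 4.3.3) was run as limma-trend on log2(normalized count + 1) without covariates, on genes with at least 10 in at least 3 libraries. Fold changes on this scale understate changes of low genes. Errors beside means are SDs over 3 pools, and p-values measure the spread between pools. Positions, transcript length and GC were read from GENCODE M21 (GRCm38, the assembly of the notes), using the longest protein-coding transcript, with a length for 97.2% of tested genes. The male share was the mean of Ddx3y, Uty, Kdm5d and Eif2s3y relative to Col6a1-/- replicate 2. The trend on length and GC was fitted per library with natural splines of 5 degrees of freedom. edgeR 4.0.16 and DESeq2 1.42.0 were run on the whole reads as alternatives. The model fit was tested on simulated data. Figures were drawn with Python 3.11.15 and matplotlib 3.10.9.

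The genes, lists and tests were chosen with earlier results of these data known. Named genes were the 9 of the set, the 5 most abundant other claudins, the 3 other tight junction genes and the 2 adherens or desmosome genes with the smallest p in each direction, and the 3 genes nearest in pattern to Cldn18, Cldn5 and Tjp1. Marker lists for alveolar, epithelial, airway, ciliated, basal, endothelial, mesothelial, fat, cardiac muscle and red cells were used as checks. The mesothelial list (4 of 4 with higher estimates) had a median log2 fold change of 0.08, the alveolar type 1 list (2 of 7 higher) -0.03, the alveolar type 2 list (1 of 7 higher) -0.11, the epithelial list (4 of 6 higher) 0.12, the ciliated list (4 of 4 higher) 0.18, and both tested genes of the 5 basal and squamous markers were higher; 0 genes of these lists were called by limma (smallest adjusted p of each between 0.111 and 0.464).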

Additional observations from a re-analysis of the deposited data

How the results depend on the processing

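No gene of the 9 was called in any alternative run: pseudocounts of 0.5 and 5, no filter, a filter at 50, median centring, quantile normalization, edgeR, DESeq2, the replicate block, each library left out, the male share as a covariate, and the trend on length and GC removed. The count over all genes was 11 and became 93 without a filter, 7 with the filter at 50, 26 with median centring, 742 with DESeq2, 7 with the replicate block, 0 with the male share as a covariate (1298 at an unadjusted p under 0.05) and 90 with the trend removed; leaving out each library gave 0 to 1381, with 0 without Col6a1-/- replicate 3 (2008 at an unadjusted p under 0.05), 24 and 47 without Col6a1-/- replicates 1 and 2, 4 and 3 without wildtype replicates 1 and 2, and 1381 without wildtype replicate 3. Without wildtype replicate 3, the remaining wildtype pools hold almost no male RNA, so sex and genotype cannot be told apart there. The counts of other claudins were 0 to 2, of other tight junction genes 0 to 1, and of adherens and desmosome genes 0 to 1 over fits leaving out 1 library; the nonzero counts came without wildtype replicate 3, where Cldn12 (0.52, adjusted p = 0.0202), Cldn8 (0.89, adjusted p = 0.0150), Cxadr (0.47, adjusted p = 0.0175) and Nectin1 (-0.42, adjusted p = 0.0237) passed limma. DESeq2 called 3 other tight junction genes and 2 adherens or desmosome genes, Cxadr (0.39), Amotl1 (-0.44), Cgnl1 (-0.31), Nectin1 (-0.37) and Cdh5 (-0.35).

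Some estimates changed sign, among them Cldn1 and Cldn12, at 0.24 and 0.37 without a covariate. With the male share as a covariate these were Cldn1 (-0.18), Cldn5 (0.13), Cldn18 (-0.10), Ocln (0.0082) and Cldn12 (-0.032). With the trend removed they were Cldn3 (-0.011) and Cgn (0.022), and with quantile normalization Cldn5 (0.012) and Ocln (0.0017). Among fits leaving out 1 library, they were Cldn3 (-0.016 to 0.21, negative without Col6a1-/- replicate 2), Cldn5 (-0.13 to 0.027, with 0.027 without Col6a1-/- replicate 1 and 0.016 without wildtype replicate 1), Cldn18 (-0.0049 to 0.12, negative without wildtype replicate 2), Ocln (-0.036 to 0.012, positive without Col6a1-/- replicate 2) and Cldn15 (-0.036 to 0.24, negative without wildtype replicate 3). Relative to markers, with the trend removed the differences of Cldn1 and Cldn5 were -0.053 and -0.046. Leaving out a library gave -0.057 to 0.012 for Cldn3 (positive without Col6a1-/- replicate 1), -0.052 to 0.11 for Cldn5 (negative without Col6a1-/- replicate 3), -0.0037 to 0.16 for Cldn18 and -0.018 to 0.35 for Cldn1 (both negative without wildtype replicate 2). The cause was not tested. Col6a1 kept its direction and had a limma adjusted p of 0.120 without Col6a1-/- replicate 3 and 0.135 with the male share as a covariate.

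The replicate numbers did not pair the pools: deviations of same-numbered pools correlated at -0.136, 0.106 and -0.006 for numbers 1, 2 and 3. The replicate block called 7 genes in all and 0 of the 9.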
